A study of Mus musculus with 6 samples.

Results

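A group of 10 genes that place, remove or act beside DNA methylation, or that silence retroelements, was followed in 4T1 cells: Dnmt1, Uhrf1, Dnmt3a, Dnmt3b, Tet1, Tet2, Tet3, Trim28, Mphosph8 and Atrx. They were taken by gene symbol from the 22116 named genes of the count table. The rule for membership used no measured value, but the genes were chosen with earlier results of these data known. All 10 were among the 12288 genes that passed the filter on low counts. The 4T1 line is a mouse mammary carcinoma cell line, and all cells were grown as one line in DMEM with fetal bovine serum and antibiotics, with no genetic change stated. Vehicle cells received DMSO, and treated cells received 10 µM P3FI-90, an inhibitor of the histone H3K9 demethylase KDM3B, in both cases for 24 h. RNA-seq gave 3 libraries per group, and the labels do not say whether these came from separate cultures, so that p-values measure only the spread between these libraries.

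Methyl groups on CpG dinucleotides are added de novo by DNMT3A and DNMT3B, and are copied after replication by DNMT1, which UHRF1 brings to hemimethylated DNA. The TET enzymes oxidize 5-methylcytosine and so open a way to its removal. TRIM28, the HUSH complex with MPHOSPH8 and the remodeller ATRX act with H3K9 methylation to keep endogenous retroviruses and other repeats silent, and loss of such silencing is known to raise double-stranded RNA and interferon signalling in tumor cells.

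After P3FI-90 treatment, Tet3, Tet2, Dnmt3a and Mphosph8 were higher and Dnmt3b, Uhrf1, Dnmt1 and Trim28 were lower, while Tet1 and Atrx did not pass the test. The log2 fold changes of these 10 genes ran from -0.76 for Dnmt3b to 1.33 for Tet3. A gene was called when edgeR's quasi-likelihood test gave an adjusted p under 0.05 over all 12288 genes. By this rule 8 of the 10 genes were called, against 79.3% of all genes tested. The calls comprised 4 higher genes, where 39.9% of all genes were higher, and 4 lower genes, where 39.4% of all genes were lower. The libraries of the groups did not overlap for 9 of the 10 genes, and for 81.2% of all genes. A log2 fold change over 1 together with an adjusted p under 0.05 was reached by 2 of the 10 genes, Tet2 and Tet3, and by 12.7% of all genes. The number of calls and the number of non-overlapping genes were thus close to the shares over the whole table, and the values of each gene are given below by role.

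**Figure D1:**
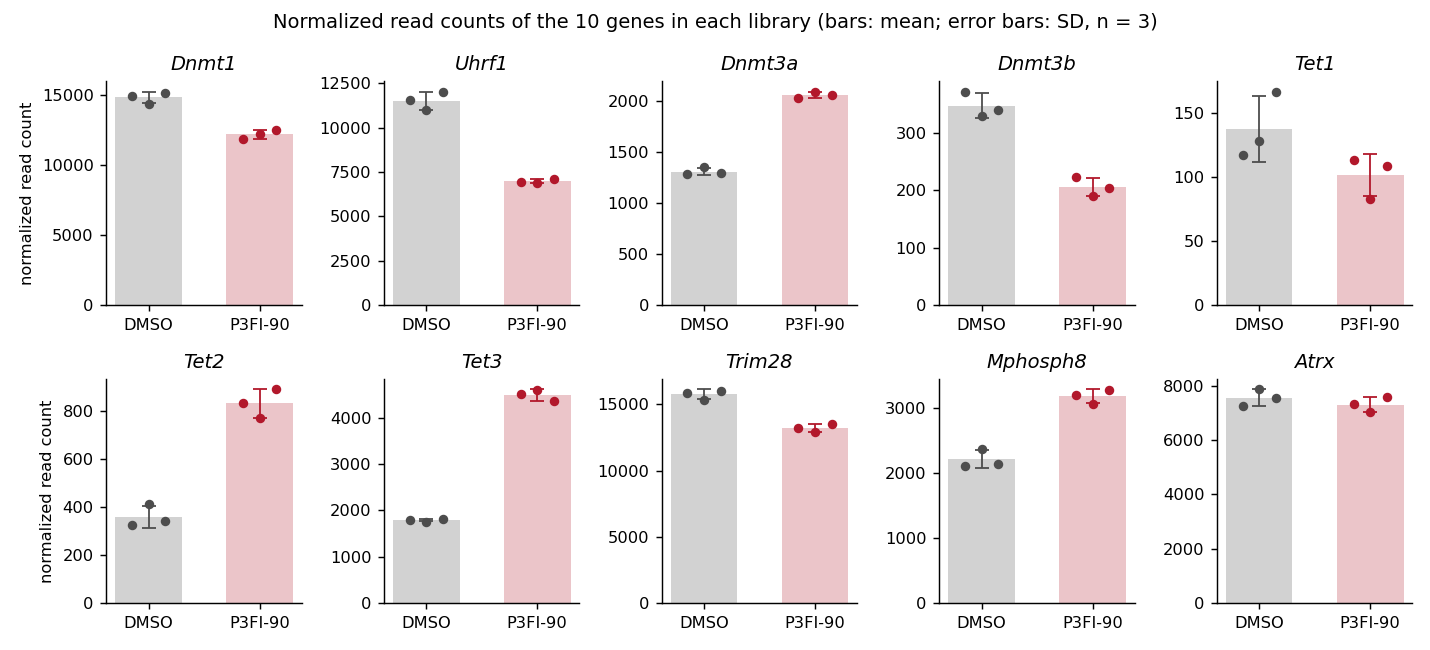
Normalized read counts (y axes, each from 0) of the 10 genes in the DMSO and P3FI-90 libraries, with points for libraries, bars for means and error bars for SD (n = 3). The groups are apart for every gene except Atrx, and the gap is narrow for Tet1, whose lowest DMSO library had 117 and highest P3FI-90 library 113 normalized counts.

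Counts on named genes summed to 31327094 to 37395732 per library. Normalized counts below are read counts scaled by edgeR's TMM factors, 0.927 to 0.930 for DMSO and 1.08 for P3FI-90, to the mean effective library size. The DMSO and P3FI-90 libraries thus differed in composition, and scaling by the total count alone moved the median log2 fold change of all genes from 0.013 to 0.23 and the share of calls that were higher from 50.3% to 62.9%. Markers of mammary epithelium were present in every library and lower after treatment, with a summed level of 3192 to 3361 CPM in DMSO and 1575 to 1649 CPM in P3FI-90 libraries, and 6 of the 7 tested markers were lower while Krt5 had 0 counts. Leukocyte markers summed to 0.873 to 1.82 CPM in DMSO and 3.84 to 4.03 CPM after treatment, with Adgre1 at 0. Fibroblast markers summed to 40.2 to 42.2 and 28.5 to 31.3 CPM, of which Pdgfra made up most and Lum was at 0, and endothelial markers to at most 0.378 and 1.01 CPM. In bulk libraries, fewer cells of a type and less RNA per cell cannot be told apart, and the part of these markers in the changes below was not tested. Kdm3b, the gene of the inhibited enzyme, had 2851 ± 67.4 normalized counts in DMSO and 3109 ± 55.7 after treatment (SD, n = 3), and its log2 fold change was 0.13 (SE 0.043; adjusted p = 0.0169 by edgeR's quasi-likelihood test), which does not check the labels since the compound acts on the protein.

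The maintenance pair was abundant and fell after treatment, Uhrf1 by more than Dnmt1. Dnmt1 (ENSMUSG00000004099), the maintenance methyltransferase, had 14953, 14390 and 15169 normalized counts in the DMSO libraries and 11867, 12203 and 12534 in the P3FI-90 libraries. All 3 treated libraries lay below the lowest DMSO library. The mean went from 14837 ± 402 to 12201 ± 334 (SD, n = 3), with a log2 fold change of -0.28 (SE 0.034, 95% interval -0.36 to -0.21, adjusted p = 2.94e-06 by edgeR's quasi-likelihood test). With total-count scaling the log2 fold change of Dnmt1 was only -0.07 and did not pass the test (adjusted p = 0.0786 by edgeR's quasi-likelihood test). Uhrf1 (ENSMUSG00000001228), which reads hemimethylated CpG and recruits DNMT1, had 11565, 10969 and 11996 normalized counts in DMSO and 6913, 6906 and 7102 after P3FI-90. The treated libraries were close together and far below every DMSO library. The mean fell from 11510 ± 516 to 6974 ± 111 (SD, n = 3), a ratio of 0.606 and a log2 fold change of -0.72 (SE 0.038, 95% interval -0.80 to -0.64, adjusted p = 3.41e-10 by edgeR's quasi-likelihood test). Of the 50-base windows in Uhrf1 transcripts, 15.4% also occur in Gm5648, a gene with no row in the table, so reads from such a copy could not be separated here.

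Promoter sequence was described for all 10 genes, of which 4 were called higher and 4 lower. RefSeq start sites on GRCm38.p6 gave 15 windows of 250 bases before a start for the 10 genes, of 32851 windows in all, and no gene coordinates of the count table were used since its build is GRCm39. An E2F-type heptamer, written as TTGGCGC, as TTCCCGC, as TTGCCGC or as TTCGCGC and searched on both strands, was present in 7.89% of all windows. It was present in 4 of the 15 windows, 1 of Dnmt1, both of Uhrf1 and that of Trim28, which are shown here with the heptamer in capitals. All 3 genes were lower after treatment under TMM scaling, and any part of the heptamer in this was not tested. The windows are chr9:20952624-20952873 (minus strand) for Dnmt1, chr17:56303087-56303336 and chr17:56304063-56304312 (plus strand) for Uhrf1 and chr7:13023902-13024151 (plus strand) for Trim28, each written 5′ to 3′ along the gene.
Dnmt1, most downstream start: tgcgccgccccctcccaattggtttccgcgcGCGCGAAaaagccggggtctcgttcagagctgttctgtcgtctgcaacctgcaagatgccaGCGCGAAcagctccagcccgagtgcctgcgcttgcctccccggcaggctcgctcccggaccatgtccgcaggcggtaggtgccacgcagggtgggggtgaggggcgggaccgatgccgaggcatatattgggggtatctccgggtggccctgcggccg
Uhrf1, upstream start: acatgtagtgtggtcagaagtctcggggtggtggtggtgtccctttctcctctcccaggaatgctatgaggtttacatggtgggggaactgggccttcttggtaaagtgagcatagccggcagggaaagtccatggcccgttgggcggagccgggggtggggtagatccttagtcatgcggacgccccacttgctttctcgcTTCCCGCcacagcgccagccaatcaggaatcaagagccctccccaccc
Uhrf1, downstream start: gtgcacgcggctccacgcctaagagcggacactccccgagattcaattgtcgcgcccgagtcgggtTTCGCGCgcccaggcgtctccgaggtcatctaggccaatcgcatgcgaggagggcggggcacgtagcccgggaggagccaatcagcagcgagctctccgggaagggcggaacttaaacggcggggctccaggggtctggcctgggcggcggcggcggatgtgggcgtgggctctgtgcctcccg
Trim28: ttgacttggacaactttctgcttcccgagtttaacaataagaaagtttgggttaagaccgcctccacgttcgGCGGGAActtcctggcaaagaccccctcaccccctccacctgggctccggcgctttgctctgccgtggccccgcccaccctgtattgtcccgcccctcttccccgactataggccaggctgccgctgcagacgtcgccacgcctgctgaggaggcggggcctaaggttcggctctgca
Dnmt1 has 3 RefSeq starts, and the window shown precedes the most downstream of them and lies downstream of the other 2, whose windows hold no such heptamer. This window holds the heptamer 2 times, 219 and 158 bases before its own start. It lies inside the gene as read from the other 2 starts, so its matches need not be promoter sequence. The match at 158 bases closely follows an ATG and may be coding sequence. In the Uhrf1 windows the heptamer begins 48 and 184 bases before the respective start, and in the Trim28 window 178 bases before it. Dnmt3b, which was also lower, has no such heptamer in its window. The CCAAT pentamer, found on either strand in 33.8% of all windows, was in 7 of the 15 windows, and the GGGCGG hexamer, in 32.7% of all windows, was in 12 of the 15. The windows of the 10 genes held a median of 17 CpG, against 6 in all windows. Every form of the E2F-type heptamer and the GGGCGG hexamer contain CpG, so their shares of all windows are not a like comparison. Several windows can also come from the same gene, as for Dnmt1 and Uhrf1. These matches are a description of sequence only.

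The de novo methyltransferases moved apart. Dnmt3a (ENSMUSG00000020661) had 1283, 1349 and 1291 normalized counts in DMSO and 2031, 2089 and 2055 after P3FI-90. Every treated library was above every DMSO library, and libraries within a group differed little. The mean rose from 1308 ± 35.9 to 2058 ± 28.8 (SD, n = 3), a fold change of 1.57 and a log2 fold change of 0.66 (SE 0.049, 95% interval 0.55 to 0.76, adjusted p = 1.68e-08 by edgeR's quasi-likelihood test). Dnmt3b (ENSMUSG00000027478), its paralog, had 371, 330 and 340 normalized counts in DMSO and 223, 191 and 204 after P3FI-90. All treated libraries were lower. The mean fell from 347 ± 21.6 to 206 ± 16.1 (SD, n = 3), a ratio of 0.592 and a log2 fold change of -0.76 (SE 0.12, 95% interval -1.02 to -0.49, adjusted p = 6.98e-05 by edgeR's quasi-likelihood test). Dnmt3b shares 9.81% of its 50-base windows with Dnmt3c, a rodent copy of it, but Dnmt3c had only 8, 3 and 9 raw counts in DMSO and 0, 6 and 0 after P3FI-90, against 208 to 367 raw counts of Dnmt3b. Dnmt3a is overlapped on the other strand by Dnmt3aos, which has no row in the table. Dnmt3l, the catalytically inactive partner of both enzymes in germ cells, had 0 counts in all libraries.

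Per kilobase of the longest annotated transcript, Dnmt3a made up 60.6%, 64.6% and 62.9% of the summed Dnmt3a and Dnmt3b level in DMSO and 80.3%, 83.0% and 81.8% after P3FI-90. Dnmt3a was therefore the larger part in every library, and its share was higher in each treated library. The mean share went from 62.7% ± 1.97 to 81.7% ± 1.38 (SD, n = 3), with p = 0.1 in an exact two-sided permutation test, the smallest p that 3 libraries against 3 allow. The summed level per kilobase went from 215 ± 3.25 to 260.2 ± 1.01 (SD, n = 3), a ratio of 1.21 with the same exact p of 0.1. The short Dnmt3a isoform that starts inside the gene would be included in these counts, and the longest transcript overstates its length.

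Tet3 and Tet2 had the largest changes of the 10 genes and both rose, while Tet1, the least abundant, did not pass the test. Tet3 (ENSMUSG00000034832), a dioxygenase expressed in many somatic cells, had 1797, 1760 and 1805 normalized counts in DMSO and 4515, 4607 and 4369 after P3FI-90. The groups were far apart and tight. The mean rose from 1787 ± 24.5 to 4497 ± 120 (SD, n = 3), a fold change of 2.52 and a log2 fold change of 1.33 (SE 0.044, 95% interval 1.24 to 1.43, adjusted p = 2.97e-12 by edgeR's quasi-likelihood test). This put Tet3 at the 91.8th percentile of signed log2 fold changes over all genes tested.

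Tet2 (ENSMUSG00000040943), known as a tumor suppressor in blood cells, had 325, 412 and 343 normalized counts in DMSO and 832, 773 and 890 after P3FI-90. Its lowest treated library was well above its highest DMSO library. The mean rose from 360 ± 45.9 to 832 ± 58.6 (SD, n = 3), a fold change of 2.32 and a log2 fold change of 1.21 (SE 0.10, 95% interval 0.99 to 1.43, adjusted p = 5.86e-08 by edgeR's quasi-likelihood test). Gm42567 overlaps Tet2 on the other strand and has no row in the table. Tet1 (ENSMUSG00000047146), the TET enzyme best known from embryonic stem cells, had 117, 128 and 166 normalized counts in DMSO and 113, 82.7 and 109 after P3FI-90. The groups just failed to overlap, and the spread within them was wide. The mean was 137 ± 25.8 in DMSO and 102 ± 16.5 after P3FI-90 (SD, n = 3), with a log2 fold change of -0.44 (SE 0.21, 95% interval -0.89 to 0.02, adjusted p = 0.0754 by edgeR's quasi-likelihood test). With 92 to 163 raw counts in a library, Tet1 was the least deeply counted of the 10 genes.

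Summed per kilobase, the TET genes had 213 ± 3.73 normalized counts in DMSO and 510 ± 4.20 after P3FI-90 (SD, n = 3), a ratio of 2.40 with an exact two-sided permutation p of 0.1. Tet3 held 79.1%, 75.0% and 77.2% of this sum in DMSO and 80.8%, 82.4% and 79.3% after treatment. Its share was the largest in every library, and the treated libraries lay just above the DMSO libraries. The mean share of Tet3 went from 77.1% ± 2.04 to 80.8% ± 1.57 and that of Tet1 from 4.48% ± 0.799 to 1.39% ± 0.228 (SD, n = 3, exact permutation p = 0.1 for each). The share of Tet2 was 18.4% ± 2.12 in DMSO and 17.8% ± 1.38 after P3FI-90 (SD, n = 3, exact permutation p = 0.7), with overlapping libraries.

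The promoter windows of Tet2 and Tet3, the genes with the largest rises, are shown with CpG in capitals. They are chr3:133544391-133544640 for Tet2 and chr6:83441679-83441928 for Tet3, both on the minus strand of GRCm38.p6 and written 5′ to 3′ along the gene from RefSeq.
Tet2: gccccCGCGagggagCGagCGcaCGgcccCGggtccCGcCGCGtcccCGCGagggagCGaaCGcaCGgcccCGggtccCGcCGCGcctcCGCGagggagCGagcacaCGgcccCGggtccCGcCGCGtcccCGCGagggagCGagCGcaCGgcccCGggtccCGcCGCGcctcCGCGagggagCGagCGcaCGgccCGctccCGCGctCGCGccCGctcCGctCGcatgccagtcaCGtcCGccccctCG
Tet3: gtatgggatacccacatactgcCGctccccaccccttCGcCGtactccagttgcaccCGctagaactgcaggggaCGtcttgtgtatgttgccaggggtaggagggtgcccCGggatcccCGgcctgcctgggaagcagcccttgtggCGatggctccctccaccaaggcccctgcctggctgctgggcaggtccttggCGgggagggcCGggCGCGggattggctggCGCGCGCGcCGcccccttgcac
The Tet2 window holds 51 CpG, more than in any other window of the 10 genes and at the 99.95th percentile of all windows, and consists in part of a repeated unit. The Tet3 window holds 17 CpG (78.3rd percentile), and the Tet1 window 15. Neither the Tet2 nor the Tet3 window holds an E2F-type heptamer.

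**Figure D2:**
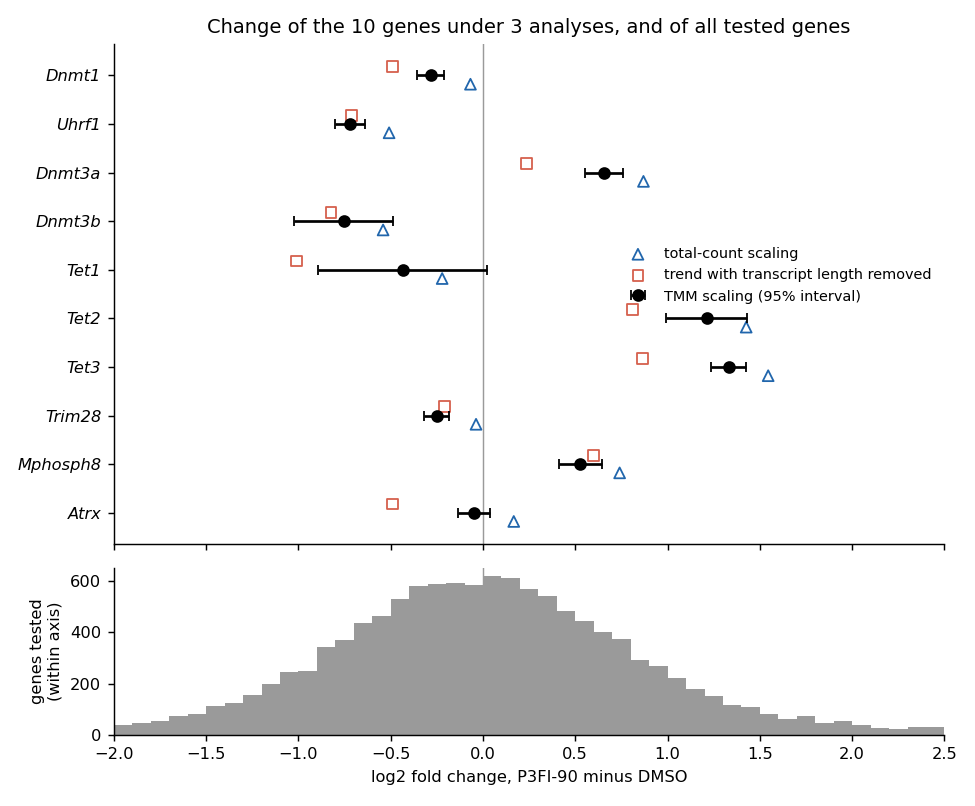
Log2 fold changes (x axis) of the 10 genes, as filled points with 95% intervals for TMM scaling and as open symbols for 2 other analyses, above a histogram of all genes tested that fall within the axis. In all 3 analyses Tet2, Tet3, Dnmt3a and Mphosph8 lie right of 0 and Uhrf1, Dnmt3b, Dnmt1, Trim28 and Tet1 left of 0. Dnmt1 and Trim28 come close to 0 with total-count scaling (-0.07 and -0.04), and the interval of Tet1 reaches 0.02. Atrx lies at -0.05, 0.17 and -0.49.

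Of the silencing genes, Mphosph8 rose, Trim28 fell slightly and Atrx did not pass the test. Trim28 (ENSMUSG00000005566), the corepressor that KRAB zinc finger proteins bring to retroviral sequence, had 15895, 15339 and 16053 normalized counts in DMSO and 13223, 12945 and 13544 after P3FI-90. All treated libraries lay below all DMSO libraries. The mean went from 15762 ± 375 to 13237 ± 300 (SD, n = 3), with a log2 fold change of -0.25 (SE 0.032, 95% interval -0.32 to -0.18, adjusted p = 5.86e-06 by edgeR's quasi-likelihood test). With total-count scaling the log2 fold change of Trim28 was only -0.04 and did not pass the test (adjusted p = 0.293 by edgeR's quasi-likelihood test). Mphosph8 (ENSMUSG00000079184), the chromodomain subunit of the HUSH complex, had 2119, 2375 and 2148 normalized counts in DMSO and 3203, 3072 and 3285 after P3FI-90. Its treated libraries were all higher. The mean rose from 2214 ± 140 to 3187 ± 107 (SD, n = 3), a fold change of 1.44 and a log2 fold change of 0.53 (SE 0.054, 95% interval 0.41 to 0.64, adjusted p = 5.37e-07 by edgeR's quasi-likelihood test). Mphosph8 shares 8.12% of its 50-base windows with Gm16973, which lies on the other strand and has no row in the table, and the strandedness of the counting is not given in the sources used here.

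Atrx (ENSMUSG00000031229), the remodeller that deposits histone H3.3 with DAXX, had 7238, 7863 and 7541 normalized counts in DMSO and 7308, 7013 and 7584 after P3FI-90. The groups overlapped. The means were 7547 ± 313 and 7302 ± 285 (SD, n = 3), with a log2 fold change of -0.05 (SE 0.041, 95% interval -0.14 to 0.04, adjusted p = 0.295 by edgeR's quasi-likelihood test). The interval leaves out changes beyond these bounds under TMM scaling, but the sign of Atrx turned with total-count scaling, where its log2 fold change was 0.17 (adjusted p = 0.00206 by edgeR's quasi-likelihood test).

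The change of a gene went with the length of its transcripts across the whole table. Among 445 tested genes whose longest transcript exceeds 9 kb, the median log2 fold change was 0.53, and 67.4% were higher and 15.1% lower. Among 2491 genes of 3 to 4 kb the median was -0.03, with 38.8% higher and 41.1% lower, and among 493 genes of up to 1 kb it was -0.46. The class over 9 kb holds Dnmt3a (9.685 kb), Tet2 (9.179 kb), Tet3 (10.904 kb), Atrx (10.275 kb) and Tet1 (14.369 kb). Dnmt3a thus rose by little more than the median gene of its length, Tet2 and Tet3 rose by more, and Atrx and Tet1 were below that median. When a smooth trend with length was removed, log2 fold changes of 0.86 for Tet3, 0.81 for Tet2 and 0.23 for Dnmt3a remained, each still past the test. With the trend removed, Dnmt1 had a log2 fold change of -0.49, Atrx of -0.49 (adjusted p = 1.80e-08) and Tet1 of -1.01 (adjusted p = 5.74e-04), all past edgeR's quasi-likelihood test, so that 4 of the 10 genes were higher and 6 lower. Mphosph8, Trim28, Uhrf1 and Dnmt3b, with transcripts of 2.939 to 4.32 kb, kept log2 fold changes of 0.60, -0.21, -0.71 and -0.82.

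**Figure D3:**
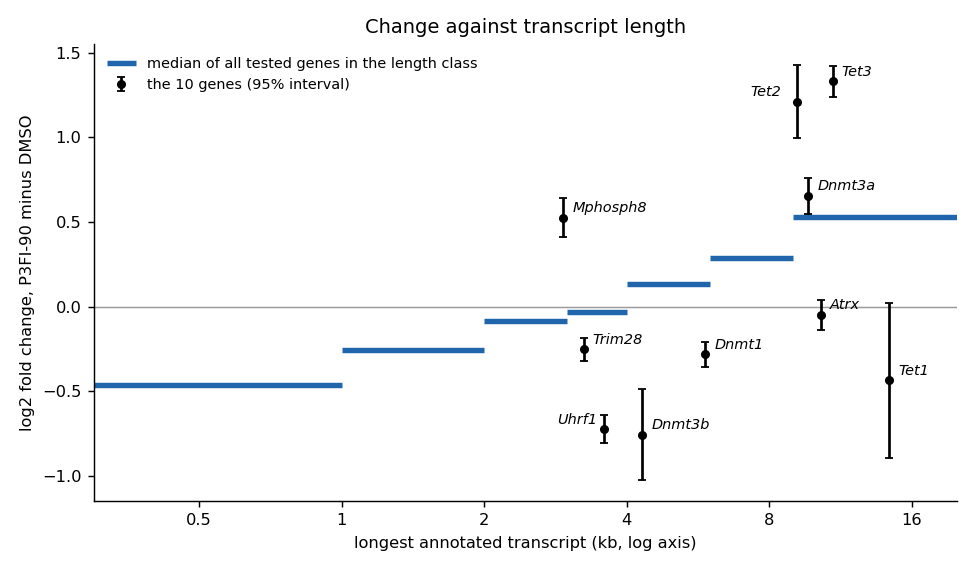
Log2 fold change (y axis) of the 10 genes with 95% intervals against the length of the longest annotated transcript (x axis, log scale), with blue bars at the median of all tested genes in each of 7 length classes. The medians climb from -0.46 to 0.53, Tet2 and Tet3 lie above the bar of their class, and Atrx and Tet1 lie below it.

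Levels were compared between genes per kilobase of the longest transcript. In DMSO the order of mean normalized counts per kilobase was Trim28 (4857), Uhrf1 (3210), Dnmt1 (2528), Mphosph8 (753), Atrx (735), Tet3 (164), Dnmt3a (135), Dnmt3b (80.3), Tet2 (39.2) and Tet1 (9.54). Only the neighbours Mphosph8 and Atrx had overlapping libraries. After P3FI-90 treatment the order was Trim28 (4079), Dnmt1 (2079), Uhrf1 (1945), Mphosph8 (1084), Atrx (711), Tet3 (412), Dnmt3a (213), Tet2 (90.6), Dnmt3b (47.6) and Tet1 (7.07), and no neighbours overlapped. On this scale Dnmt1 and Uhrf1 had changed places, as had Tet2 and Dnmt3b. Both exchanges depend on the division by length, since Dnmt1 had more normalized counts than Uhrf1 in every library of both groups, and Tet2 and Dnmt3b overlapped in DMSO, with 360 ± 45.9 and 347 ± 21.6 normalized counts (SD, n = 3). Trim28 stayed above 96.4% of tested genes per kilobase in DMSO and 96.9% after treatment, whereas Tet3 moved from the 32.0th to the 52.9th percentile.

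**Figure D4:**
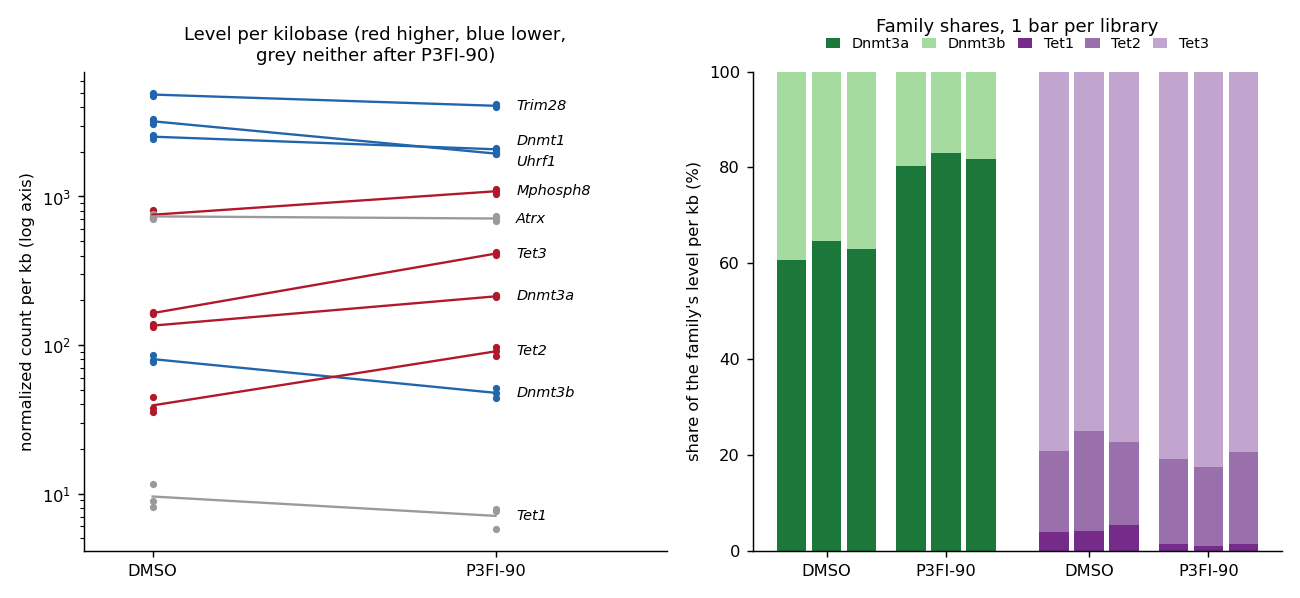
Left, normalized counts per kilobase (log axis) of the 10 genes, with points for libraries and lines between group means. Right, the percentage of the family's level per kilobase held by each Dnmt3 or Tet gene, with 1 bar per library. Per kilobase, Uhrf1 crosses below Dnmt1 and Tet2 above Dnmt3b, and Dnmt3a widens from 62.7% to 81.7% of its family on average.

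The 3 tested genes nearest to a member in pattern were found by the distance between centred log2 CPM over the 6 libraries, among genes within 4 times of its mean count. For Tet3 these were Zbtb17, Patl1 and Foxo3 among 7250 candidates, with log2 fold changes of 1.32, 1.32 and 1.34. For Uhrf1 they were Nt5c2, Niban2 and Lasp1 among 4030 candidates, with -0.69, -0.75 and -0.71. For Dnmt1 they were Wdr82, Pcyox1 and Rnf19a among 2768, with -0.26, -0.27 and -0.26. The distance takes in the difference between the groups, so fold changes close to that of the member follow from the choice. Shared regulation was not tested.

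The other genes of these pathways were read from 12 lists, and the median log2 fold change of all genes tested was 0.01. Of all genes tested, 39.9% were higher and 39.4% lower, which is the background for the counts of every list. Among the partners of the methyltransferases, 2 of the 10 tested genes were higher, 7 lower and 1 neither, with a median of -0.35. Pcna, the replication clamp that holds DNMT1 at the fork, went from 18177 ± 259 to 9634 ± 121 normalized counts (SD, n = 3, log2 fold change -0.92), and Lig1, the replicative ligase that UHRF1 binds, from 8004 ± 338 to 4094 ± 183 (log2 fold change -0.97). Both were clearly below their DMSO libraries. Uhrf2, the paralog of Uhrf1, moved the other way with a log2 fold change of 0.60, as did Zbtb24, a zinc finger gene needed for satellite methylation, with 1.12. Hells, the remodeller of the same pathway, had a log2 fold change of -0.07 (adjusted p = 0.0871 by edgeR's quasi-likelihood test). With total-count scaling 4 genes of this list were higher. Because Dnmt1 and Uhrf1 are known to be expressed with the cell cycle, 20 S-phase and proliferation genes were counted as well, of which 8 were higher, 11 lower and 1 neither with a median of -0.25. Rrm2, the small ribonucleotide reductase subunit, and the mitotic genes Ccnb1, Ccna2 and Cdk1 had log2 fold changes of -1.96, -1.71, -1.02 and -0.89. E2f1, Pole, Cdt1 and Mcm3, named after their values were seen, went the other way with 0.71, 0.49, 0.46 and 0.40. Mcm4, Cdc6, Mcm2 and Mcm5, the rest of the 8 higher genes and named likewise, had 0.18, 0.16, 0.15 and 0.10. The part of the cell cycle in the change of Dnmt1 and Uhrf1 was not tested.

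Around the TET enzymes, 4 of the 12 tested partners were higher, 6 lower and 2 neither, with a median of -0.15. Gadd45g and Gadd45b, stress-induced genes linked to active demethylation, went from 119 ± 26.9 to 2694 ± 124 and from 1691 ± 149 to 5688 ± 102 normalized counts (SD, n = 3), log2 fold changes of 4.49 and 1.75. The isocitrate dehydrogenases Idh1 and Idh2, which make the 2-oxoglutarate that TET enzymes consume, fell from 3482 ± 253 to 766 ± 33.7 and from 8306 ± 410 to 2385 ± 70.9, log2 fold changes of -2.18 and -1.80. The genes for these enzymes thus moved opposite to Tet2 and Tet3. Tdg, the glycosylase that removes oxidized cytosine, had a log2 fold change of -0.11 (adjusted p = 0.134 by edgeR's quasi-likelihood test). Of the 9 tested genes of the methyl donor cycle, 2 were higher, 6 lower and 1 neither, with a median of -0.55. Mat2a, which makes S-adenosylmethionine, fell from 9577 ± 284 to 2706 ± 164 and Ahcy, which clears S-adenosylhomocysteine, from 6996 ± 235 to 2136 ± 52.4 normalized counts (SD, n = 3), log2 fold changes of -1.82 and -1.71. Ahcyl1 and Ahcyl2, relatives of Ahcy, had -0.74 and 0.88. Only 1 gene of this list was higher without the first or without the third P3FI-90 library, or with the length trend removed.

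Among the methyl-CpG readers and related genes with a methyl-CpG-binding domain, 7 of the 11 tested genes were higher, 2 lower and 2 neither, with a median of 0.33. The list takes in such domain genes whether or not their proteins bind methylated DNA. Mbd5, a methyl-CpG-binding domain gene, rose from 421 ± 7.91 to 1240 ± 95.5 normalized counts (SD, n = 3, log2 fold change 1.56), and its relatives Mbd6 and Mbd1 had log2 fold changes of 1.15 and 0.72. With the length trend removed, 6 genes of this list were higher and 4 lower. Of the 17 tested partners of HUSH, SETDB1 and TRIM28, 11 were higher, 4 lower and 2 neither, with a median of 0.31. Removal of the length trend left 9 of these partners higher and 3 lower. Resf1, which acts with SETDB1 on retroelements, rose from 1531 ± 10.1 to 6128 ± 102 normalized counts (SD, n = 3, log2 fold change 2.00), and Tasor2, a paralog of the HUSH scaffold, had a log2 fold change of 0.73. Cbx3, a heterochromatin protein that reads H3K9 methylation, fell from 7645 ± 108 to 3605 ± 127 (log2 fold change -1.08) and Chd4, the NuRD ATPase, had -0.58. Setdb1, the methyltransferase that TRIM28 recruits, changed little, with a log2 value of 0.16 (adjusted p = 0.0014 by edgeR's quasi-likelihood test).

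Of the 9 tested partners of ATRX and histone H3.3, 4 were higher and 5 lower, with a median of -0.19. Daxx, the H3.3 chaperone that binds ATRX, fell from 1615 ± 34.1 to 1280 ± 34.3 normalized counts (SD, n = 3, log2 fold change -0.34). The H3.3 genes H3f3b and H3f3a fell with log2 fold changes of -0.98 and -0.82, and Asf1b, a histone chaperone, with -0.24. Ubn1, a subunit of the HIRA chaperone, went up from 1919 ± 93.5 to 8518 ± 158 (SD, n = 3, log2 fold change 2.15). The count of higher genes in this list was 2 without the second DMSO library or without any single P3FI-90 library, with upper-quartile scaling and with the length trend removed, and 3 were lower with total-count scaling. Of the 15 H3K9 methyltransferases and demethylases, 10 were higher and 5 lower, with a median of 0.51. Removal of the length trend left 8 of them higher and 6 lower. The demethylases Kdm3a, Kdm4c and Jmjd1c, of which Kdm3a and Jmjd1c belong to the family of Kdm3b, had log2 fold changes of 1.36, 1.03 and 0.96, and the H3K9 methyltransferase Ehmt2 had -0.67.

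**Figure D5:**
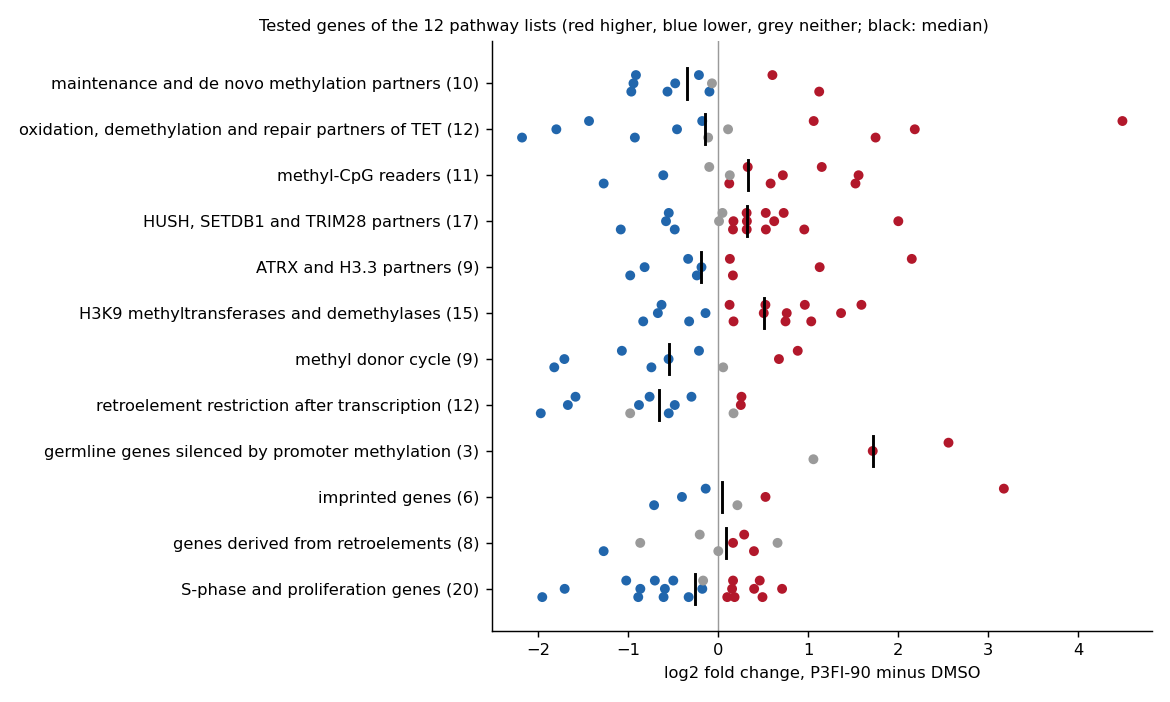
Log2 fold changes (x axis) of the tested genes in the 12 pathway lists (y axis, number tested in parentheses), with points coloured by call and a black mark at each list's median. The medians run from -0.66 for restriction factors and -0.55 for the methyl donor cycle to 0.51 for H3K9 enzymes, apart from 1.72 for the 3 tested germline genes.

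Genes that DNA methylation or these complexes are known to keep silent were mostly not detected in either group. Of 24 germline genes with promoters methylated in mouse somatic cells, 16 had 0 counts in all 6 libraries, among them Dazl and Ddx4. A count of 0 allows up to 0.0802 to 0.0958 CPM in a library, taken as 3 counts and covering counting error only. The 21 germline genes below the filter reached at most 9 counts in a library. Of the 3 tested, Sycp1, a synaptonemal complex gene, rose from 169 ± 31.9 to 557 ± 34.2 normalized counts (SD, n = 3, log2 fold change 1.72, adjusted p = 3.11e-08 by edgeR's quasi-likelihood test). Piwil2, a PIWI gene, had 6, 5 and 0 raw counts in DMSO and 33, 13 and 30 after P3FI-90 (adjusted p = 0.00504 by edgeR's quasi-likelihood test), and Mov10l1 had 17, 8 and 0 against 11, 26 and 23 (adjusted p = 0.197). Sycp1 had therefore more than 100 counts already in the DMSO libraries, while Piwil2 was near the limit of detection.

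Of the 14 imprinted genes in the table, 6 were tested, of which 2 were higher, 3 lower and 1 neither with a median of 0.04. Plagl1, a zinc finger gene, rose from 11.3 ± 3.18 to 101 ± 12.6 normalized counts (SD, n = 3, log2 fold change 3.17) and Igf2r, the receptor that clears IGF2, had 0.52, while Snrpn had -0.71 and Gnas -0.14. With total-count scaling only 1 of the 6 was lower. Of 24 genes descended from retroviruses or transposons, 8 were tested, of which 3 were higher, 1 lower and 4 neither with a median of 0.08. Zbed6, Zbed3 and Tigd2 had log2 fold changes of 0.16, 0.29 and 0.40 and Pgbd1 of -1.27. With the length trend removed, 2 were higher and 2 lower. The table counts genes, so transcripts of endogenous retroviruses and LINE elements themselves were not measured here.

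Of 12 factors that act on retroelement RNA or DNA after transcription, 2 were higher, 8 lower and 2 neither, with a median of -0.66. Rnaseh2a and Rnaseh2c, subunits of the RNase H2 that cuts RNA in RNA-DNA hybrids, fell from 3849 ± 163 to 1281 ± 47.2 and from 1388 ± 70.5 to 353 ± 11.9 normalized counts (SD, n = 3), log2 fold changes of -1.59 and -1.97. Mov10, a helicase that restricts LINE elements, fell from 4020 ± 315 to 1261 ± 90.9 (log2 fold change -1.67) and Apobec3, a cytidine deaminase, had -0.76. These 4 were named for the smallest p of the list, so that passing edgeR's quasi-likelihood test was fixed by the choice. In each the treated libraries lay below every DMSO library, and the groups did not overlap for 81.2% of all genes tested. Zc3hav1 and Adar, named after their values were seen, were higher, with log2 fold changes of 0.25 and 0.26. Trex1 and Bst2, named likewise, were neither, with overlapping libraries.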

How the data were processed

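The authors deposited a table of read counts per gene, whole numbers without normalization, for 3 DMSO and 3 P3FI-90 libraries prepared with an Illumina mRNA-Seq kit. The submitters' processing notes list CASAVA, HISAT2, StringTie and the build GRCm39, and settings, annotation and strandedness are not given in the sources used here. The 285 rows of assembled transcripts (0.483% to 0.556% of counts) were left out. Genes were filtered with filterByExpr, scaled by TMM and compared with the quasi-likelihood test of edgeR 4.0.16 in R 4.3.3, with Benjamini-Hochberg adjustment over 12288 genes. The 10 members and the lists were chosen with earlier results of these data known. The text names all members and, from each list, the 4 tested genes with the smallest p. It also names Kdm3b, Setdb1, Daxx, Tdg, Hells and Mat2a, besides markers, genes at 0 counts and genes that share sequence with a member. The higher S-phase and proliferation genes and Zc3hav1, Adar, Trex1 and Bst2 were named after their values were seen. Some genes under this rule are not reported here.

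Transcript lengths and shared windows came from GENCODE M21, which gave a length for 99.8% of tested genes, and promoters from RefSeq. Levels per kilobase and family shares used the longest transcript, with exact permutation tests. Alternatives were DESeq2 1.42.0 size factors and test, total-count and upper-quartile scaling, omission of the filter or a minimum of 10 counts per library, limma 3.58.1 with voom or on log2(CPM + 1), a replicate block, removal of a length trend (natural spline, 4 degrees of freedom), no division by length, and each library left out. Alternatives for summed levels and the length trend for lists were added after seeing the data. Libraries of equal number deviated together by correlations of only -0.021, 0.015 and 0.0049 and were not paired, since no label ties them. The chi-square per gene between libraries of the same group was 5.21 to 7.85, more than counting noise, so no library repeats another.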

Additional observations from a re-analysis of the deposited data

How the results depend on the processing

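The 10 genes were refitted under 16 alternatives each, and Dnmt3a, Dnmt3b, Uhrf1, Tet2, Tet3 and Mphosph8 kept their direction and their call in all of them. Scaling by total count left 2 of the 10 genes lower, Dnmt3b (log2 fold change -0.54) and Uhrf1 (-0.51), and 5 higher, Atrx among them. The log2 fold changes were -0.068 for Dnmt1 (adjusted p = 0.0786), -0.038 for Trim28 (adjusted p = 0.293) and 0.17 for Atrx (adjusted p = 0.00206), each by edgeR's quasi-likelihood test. The median of all genes shifted upward from 0.013 to 0.23. Removing the length trend gave -1.01 for Tet1 and -0.49 for Atrx, both past the test, and limma on log2(CPM + 1) gave -0.33 for Tet1 (adjusted p = 0.0460). The cause of these differences was not tested. The summed Dnmt3a and Dnmt3b level had a ratio of 1.40 with total counts, 1.18 with upper quartiles and 1.37 without division by length, and the summed Tet level 2.78 with total counts and 2.34 with upper quartiles. Without division by length, the share differed by 11.9 percentage points for Dnmt3a, by -11.9 for Dnmt3b and by -4.12 for Tet1. With 1 library left out, the difference in Tet2 share ran from -1.36 to 0.573 percentage points, above 0 only without the second DMSO or the second P3FI-90 library. With the replicate number as a block, 4802 genes were higher and 4722 lower, and 4 of the 10 genes were higher and 4 lower, with no call among them changed. Numbers do not mark pairs here. Tet1, with the fewest counts, had the widest spread over left-out libraries, -0.54 to -0.27. The counts give no protein level and no DNA methylation.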
